A study of Homo sapiens with 32 samples.

Results

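Clustered A-to-G positions are reference adenosines read as G in part of the reads, several of them close together on the same strand. In these data 9 such positions, in 3 genes, were found among 704226 covered positions of any reference base and 132995 covered reference adenosines outside mitochondrial RNA, rRNA genes and tRNA genes. They were chosen by measured values of the mock libraries. A member had 30 or more reads in at least 8 of the 16 mock libraries, a pooled G share of 5% to 90%, and G in at least 90% of its non-reference reads. It also had 2 or more other such positions within 100 nt on its strand. In all, 67 positions passed the filters before the neighbour rule, and 58 of them had fewer than 2 neighbours and are called isolated here.

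Hep3B is a human hepatocellular carcinoma line. The libraries came from 8 genotypes, all given 100 nM dTAGV1, a degrader of FKBP12-F36V fusions, for 24 h. Wildtype cells were parental. FKBP cells carried the FKBP12-F36V tag on endogenous NAT10, the RNA cytidine acetyltransferase. NAT10(-) cells were tagged cells with a control plasmid, and the other lines were tagged cells given NAT10-WT, the helicase mutants K290A or E389L, or the acetyltransferase mutants H537A or G641E, after Blasticidin selection. Wildtype and NAT10-WT were taken as NAT10-competent and the other 6 genotypes as NAT10-deficient. Each genotype had 2 replicates, and the replicate number was taken as the batch. Each RNA sample was split into a mock fraction and a fraction reduced with NaCNBH3, giving 32 libraries. NaCNBH3 reduces N4-acetylcytidine so that it is misread during reverse transcription. The files list positions with 30 or more reads; libraries listed 400119 to 3797803 positions at a median depth of 49 to 169 reads. Of the liver markers, ALB, APOA1, APOA2, APOB, SERPINA1, TF, AHSG and RBP4 had covered exons in 16 of 16 mock libraries. FGA was covered in 12, AFP and TTR in 11 and FGB in 6. Of the markers of other cells, PTPRC, PECAM1, VWF, COL1A1, COL3A1, HBB and CD3E had none, and LYZ had covered positions in 12.

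A-to-G editing is the deamination of adenosine to inosine by ADAR enzymes, and reverse transcriptase reads inosine as G. ADAR1 and ADAR2 act on double-stranded RNA. In human cells most of it lies in Alu elements, primate repeats derived from 7SL RNA, where a pair of inverted copies can fold back on each other. Edited adenosines then tend to come in groups, and ADAR enzymes disfavour a G just before the edited base. A read can also carry G because it belongs to a similar sequence elsewhere in the genome.

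The 3 places differed in what surrounds the adenosines. The sequences of AAMDC and RRBP1 are shown because they carry that difference. They are from GRCh38, 5′ to 3′ on the transcript strand, and capitals mark the clustered adenosines, except where another base is named. In RBCK1, which encodes a subunit of the linear ubiquitin ligase LUBAC, all 3 members lay in 64 covered bases of an intron at chr20:416911-416974, plus strand.
In AAMDC, a gene linked to adipogenesis, the member lay in an intron at chr11:77886553-77886613, plus strand. INTS4 lies on the opposite strand there. The second line is the matching stretch of 28S rRNA at chr21:8217653-8217713, with the base at the member's place in capitals.
AAMDC copy: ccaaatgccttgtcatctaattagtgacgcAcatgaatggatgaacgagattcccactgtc
28S rRNA: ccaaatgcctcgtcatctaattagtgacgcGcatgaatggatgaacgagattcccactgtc
In RRBP1, which encodes the ribosome-binding protein of the rough endoplasmic reticulum, all 5 members lay in a coding exon at chr20:17658596-17660528, minus strand. The exon holds a tandem repeat with a unit of 30 bases. The 5 units with members span chr20:17659115-17659264 and are shown in transcript order.
RRBP1 unit 23: cccagaatcagggcaaAaaggccgaggggg
RRBP1 unit 24: cccagaaccagggcaAgaaggccgaggggg
RRBP1 unit 25: cccagaaccagggcaAgaaggccgaggggg
RRBP1 unit 26: cccagaaccagggcaAgaaggccgaggggg
RRBP1 unit 27: cccagaaccagggcaAgaaggccgagggtg
Units 3 and 10 are shown because they have G, in capitals, at the base where units 24 to 27 have the member.
RRBP1 unit 3: ccccaaaccagggcaGaaaggcagagggaa
RRBP1 unit 10: ccccaacccagggcaGaaaggccgaggggg

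The RBCK1 positions lay at 416914, 416939 and 416946 of chromosome 20, and are sites 1 to 3 in that order. The stretch was 6886 bases past the previous exon and 552 bases before the next exon of the canonical transcript. A match to 7SL RNA of 90% over 30 bases covered site 3 (416942 to 416971), and matches upstream reached back to 416739, all on the sense strand. The nearest copy on the opposite strand lay 514 bases upstream, at 416191 to 416425, with 75.2% identity over 238 aligned bases. A second inverted copy lay 1465 bases downstream, and no copy of at least 90% identity over 100 bases was found in the genome outside the locus for any of the 3 windows. G was the most frequent mismatch at each of the 3 sites, as the rule required. Of the 17 covered adenosines, 14 were not members, and the highest of these showed 1.20%. At reference C, G and T the highest mismatch was 0.320%.

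**Figure D1:**
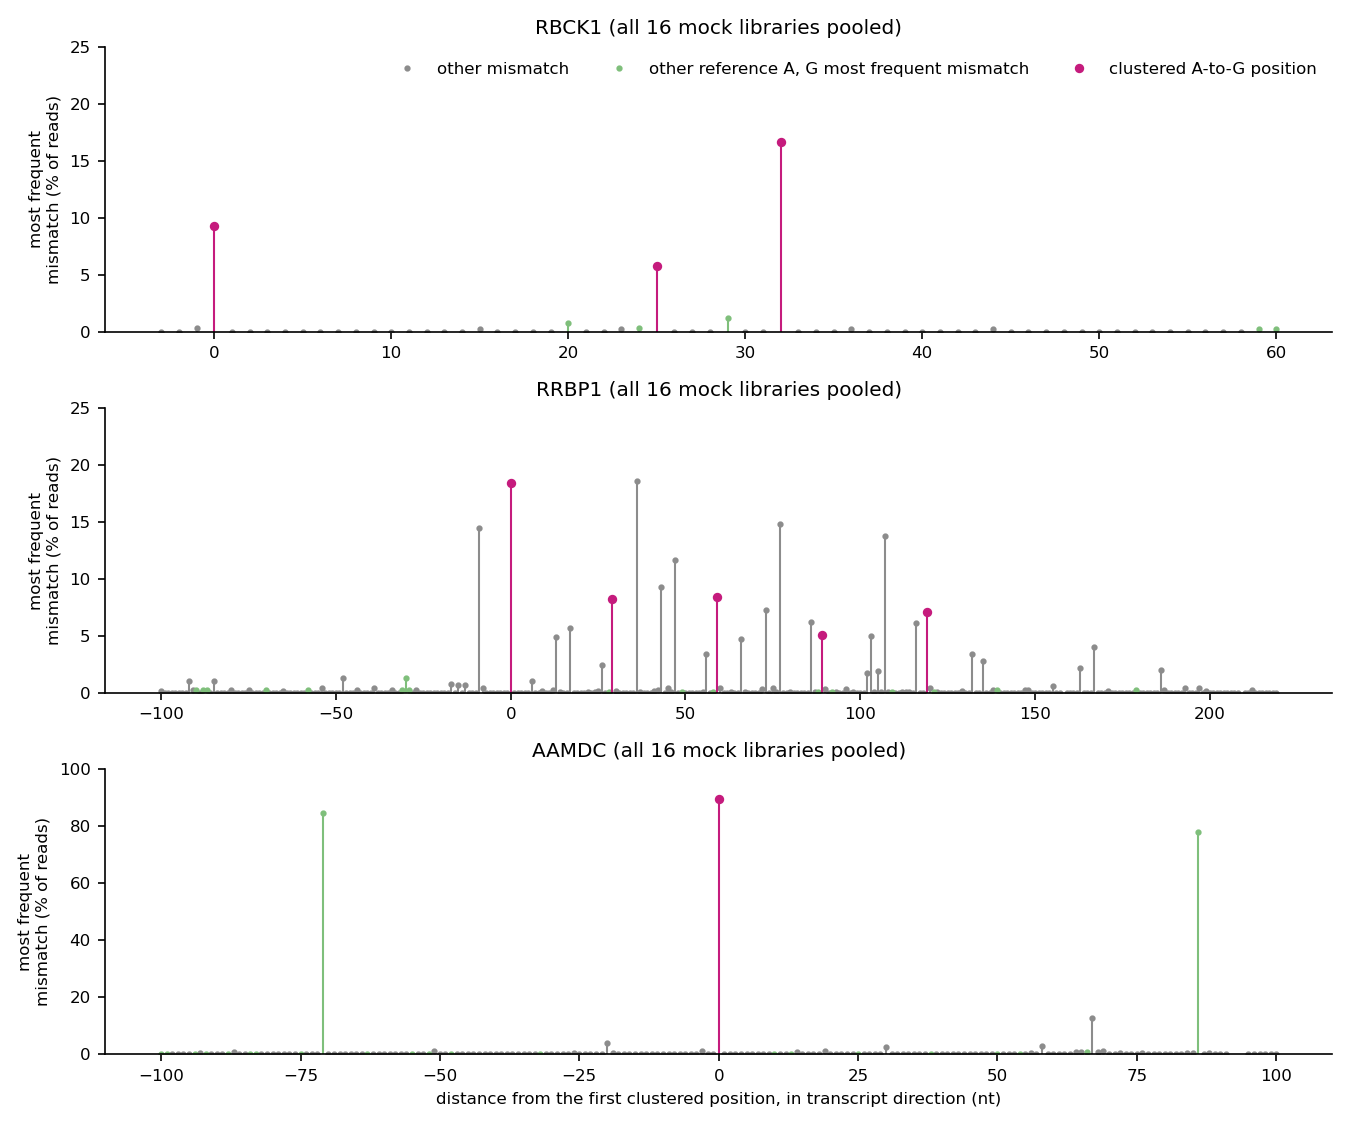
The plots show the most frequent mismatch, in % of pooled mock reads, against distance in nt from the first clustered position in transcript direction, for RBCK1, RRBP1 and AAMDC. In RBCK1 only the 3 members rise above 2%, in RRBP1 the 5 members stand among 19 other mismatches of 2% or more, and in AAMDC 2 further reference adenosines stand beside the member.

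Site 1 of RBCK1 had 29 G reads among 312 in 8 mock libraries, 9.29%. Its level ranged from 0% (G641E replicate 1, 0 of 40 reads, which allows a share of up to 7.5%) to 16.7% (FKBP replicate 1), with a median of 9.43%. Site 2 had 22 G reads among 380 in 9 libraries, 5.79%, with a range of 1.96% to 10.9%.
Site 3 was the highest of the group, with 75 G reads among 449 in 11 libraries, 16.7%. Its mock level was 16.7% and 20% in Wildtype, 16.7% and 16.7% in NAT10-WT, 31.25% and 16.7% in FKBP, and 16.7% and 12.2% in K290A. It was 12.1% in NAT10(-) replicate 1, 7.69% in E389L replicate 1 and 16.7% in G641E replicate 1. These levels overlap between NAT10-competent and NAT10-deficient cells. H537A had fewer than 30 reads at each of the 3 sites in every library, and NAT10-WT was covered at site 3 of the mock libraries only. In NaCNBH3 libraries, which the rule did not use, pooled levels were 10.5%, 4.03% and 17.9% for sites 1 to 3, with 9 libraries covered each. Depth at these sites was 30 to 65 reads in a library, so the exact 95% binomial intervals were wide, for example 18.7% to 46.25% for site 3 in FKBP replicate 1. Such intervals cover counting error only.

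The RRBP1 positions are named sites 1 to 5 in transcript order: 17659248, 17659219, 17659189, 17659159 and 17659129 of chromosome 20. They fell in units 23 to 27 of an array of 33 units at chr20:17658935-17659924, at base 17 of unit 23 and base 16 of units 24 to 27. Units 24, 25 and 26 were identical to one another over all 30 bases, and so were units 14 and 30, which held no member. Unit 29, equal to unit 25 at 29 bases, has A at base 16, with G in 0.226% of mock reads. Read as G, site 1 would leave lysine codon 420 a lysine codon, and sites 2 to 5 would turn the lysine codons 430, 440, 450 and 460 of the canonical transcript into arginine codons.
Mock levels were 18.4% at site 1 (83 of 450 reads, 10 libraries), 8.24% at site 2 (126 of 1530), 8.41% at site 3 (146 of 1736), 5.10% at site 4 (99 of 1943) and 7.14% at site 5 (81 of 1135). Sites 2 to 4 were covered in 16 libraries and site 5 in 15. Site 3 ranged from 0.943% (Wildtype replicate 2) over a median of 8.56% to 16.7% (Wildtype replicate 1), so the lowest and the highest library belonged to 1 genotype. The same was true of site 2, with 3.19% and 16.4% in the Wildtype replicates and a median of 8.14%.
Pooled NaCNBH3 levels were 14.4%, 7.20%, 7.92%, 5.64% and 6.37% for sites 1 to 5.

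The same stretch of RRBP1 carried other mismatches at levels like those of the members. Of 318 covered positions, 24 had a mismatch of 2% or more, and 19 of these were not members. For 14 of the 19 the same mismatch stood 30 nt away at 2% or more, and for 5 it did not. A-to-C mismatches stood at base 4 of units 24 to 27, with 5.69%, 11.7%, 14.85% and 13.8% of reads. G-to-A mismatches stood at base 13 of the same units, from 2.42% to 6.23%, and at base 30 of units 23 to 26, from 4.92% to 9.34%. For 20 of the 24 positions the mismatch base was the reference base at the same place of at least 1 other unit, against 45 of 82 positions with a mismatch above 0% and below 2%. The G at base 16 occurred in 2 of the other 32 units, and the A at base 13 in none. Site 1 differed, as its G occurred in 12 other units, 1 of them adjacent. This is a description of the reference array; how many units Hep3B cells carry was not tested.

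The AAMDC position, 77886583 of chromosome 11, had the highest G share of the 9: 3318 of 3701 mock reads, 89.7%. It was also closest to the upper limit of 90%. The 2 positions that made it a member, 77886512 (84.5%) and 77886669 (78.0%), had only 1 neighbour within 100 nt and stayed outside. At the lower limit of 5%, RRBP1 site 4 (5.10%) and RBCK1 site 2 (5.79%) lay just inside. The highest adenosine with 2 or more passing neighbours that failed this limit alone had 1.92% (83 of 4323 reads, in IGF2 at 2132075 of chromosome 11), and the next 1.34% (5 of 372 reads, in RRBP1 at 17659278 of chromosome 20). The fewest libraries of a member were 8, at RBCK1 site 1, and the lowest G share of non-reference reads was 98.8%, at RRBP1 site 5.
The stretch chr11:77886428-77886755 aligned to 28S rRNA over 328 bases without gaps at 96.6% identity, with 11 differing bases. At the 3 A-to-G positions AAMDC has A and 28S rRNA has G, and the reads with the 28S base made up 84.5%, 89.7% and 78.0%. At 2 further differing bases with coverage, where AAMDC has T and 28S rRNA has C, the 28S base made up 3.86% (77886563) and 12.5% (77886650). The other 6 differing bases lacked coverage. The member corresponds to base 3796 of 28S rRNA, read as G in 99.98% of 270904 reads there. It had a median of 176.5 reads a mock library, against 17951 at the matching 28S position. The deepest position of each library had 20029 to 20049 reads. Whether a depth limit lowered the 28S count was not tested.

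**Figure D2:**
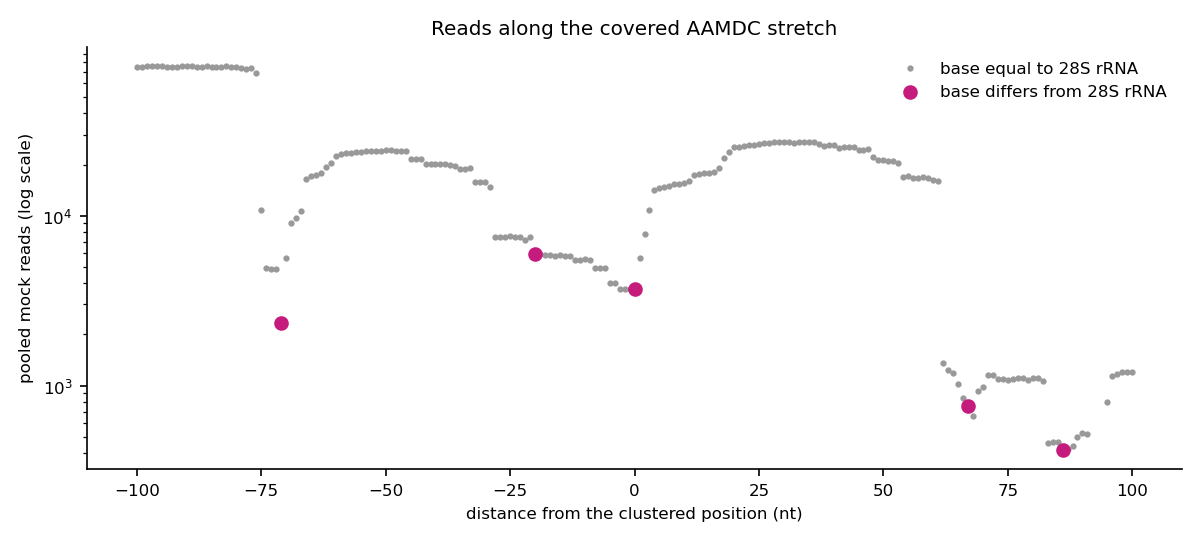
The plot shows pooled reads of the 16 mock libraries on a log scale against distance in nt from the AAMDC member. Positions where the base differs from 28S rRNA (large points) lie in dips of the read count, from 418 to 5956 reads, against up to 75835 at positions with the same base.

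Mock levels of the AAMDC position, replicate 1 then 2, were 93.3% and 85.5% in Wildtype and 94.4% and 87.2% in NAT10-WT. They were 91.7% and 88.1% in FKBP, 94.7% and 87.8% in NAT10(-), 90.4% and 90.5% in K290A, 96.4% and 89.7% in E389L, 88.8% and 91.6% in H537A, and 91.7% and 86.2% in G641E. Competent and deficient genotypes overlapped, and Wildtype replicate 2 was the lowest of the 16 libraries. By batch, the mock mean was 92.7% ± 2.50 (SD, n = 8) in replicate 1 and 88.3% ± 2.12 (SD, n = 8) in replicate 2.

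**Figure D3:**
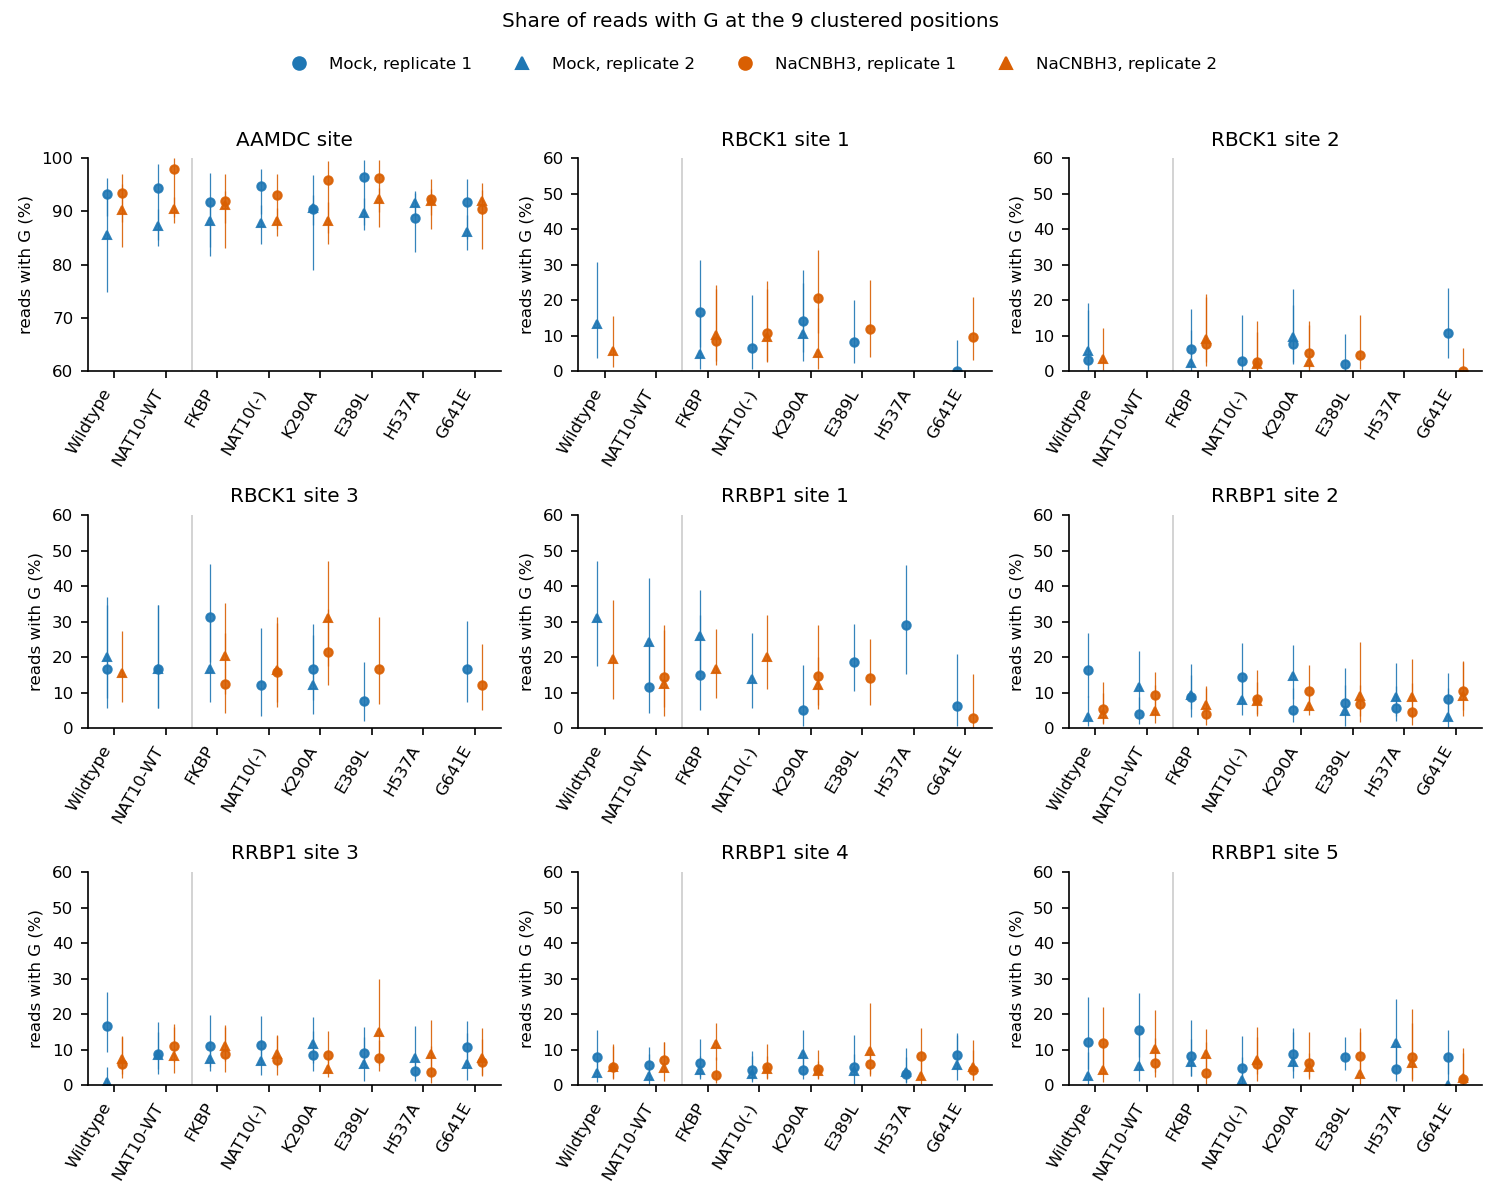
Each panel shows 1 clustered position, with the share of reads with G (%) in each library that covered it by genotype. Colour gives the fraction, shape the replicate, and bars the exact 95% binomial intervals; the AAMDC axis runs from 60% to 100%, the others from 0% to 60%, and at no position do the competent genotypes (left of the line) stand apart from the rest.

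Features that the rule did not use were compared with those of the 58 isolated positions. Of the 9 members, 5 lay in 1 coding exon of RRBP1 and 4 in introns, 3 of these in 1 stretch of RBCK1. By cluster, 1 of 3 was coding, so the members are not separate observations of location. The isolated positions fell into 6 coding, 7 UTR, 21 noncoding-exon, 7 intron and 17 intergenic positions. An Alu-type match lay within 100 bases of 3 of 9 members, all in RBCK1, and of 1 of 58 isolated positions. Of the RBCK1 sites, site 3 alone lay inside a matching stretch. Counted by cluster, this is 1 of 3. A similar copy with G at the aligned place was found for 2 members (AAMDC, RRBP1 site 1) and 19 isolated positions. Copies within the same gene were not left out, so those of RRBP1 site 1 can be other units of its array.
No member had G as the base before it. They had A before it in 6 cases and C in 3, against G in 5.17% of isolated positions and 31.3% of all covered adenosines. Of the 6 with A, 5 are the RRBP1 members, in units of 1 repeat, so they are not separate observations. Of the 3 with C, 1 is the AAMDC position, where 28S rRNA has G. The base after was G at 6 of 9 members, 27.6% of isolated positions and 32.2% of all covered adenosines. Of those 6, 4 are the same base of a repeat unit, so they are not separate observations.
Put through the same rule, the other 11 mismatch types gave 4 A-to-C and 5 G-to-A clustered positions, all in RRBP1, and none of the other 9 types gave any. Outside RRBP1, the clustered positions were the AAMDC one, where 28S rRNA has G, and the 3 of RBCK1, all A-to-G. These places are too few to compare mismatch types.

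**Figure D4:**
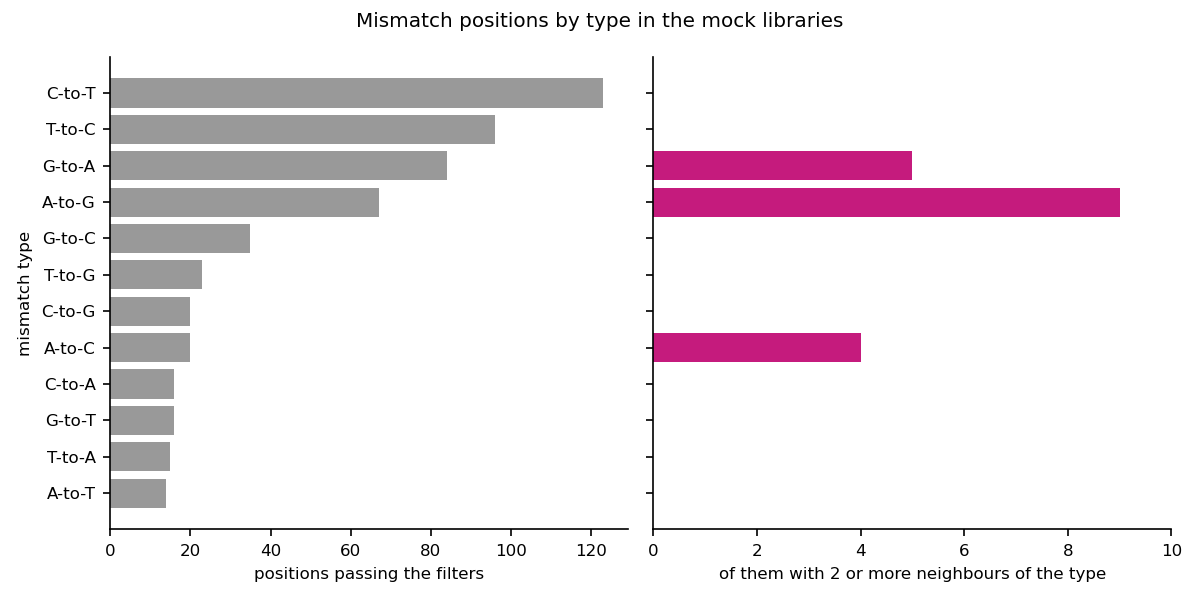
The bars give, for each of the 12 mismatch types, the number of positions passing the filters (left) and the number of them with 2 or more neighbours of the same type (right). A-to-G has 67 positions, fewer than C-to-T, T-to-C or G-to-A, and the most clustered ones, 9.

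The comparison of NaCNBH3 with mock asked whether the reduction moved these levels. It was fitted with limma over 915 reference adenosines of any RNA with a pooled G share above 1%, on the log2 odds of G against A, with the sample as a block. None of the 9 members passed a Benjamini-Hochberg adjusted p of 0.05, where 12 of 915 positions (1.31%) did. Only 1 member had an unadjusted p below 0.05. This was the AAMDC position, with 90.5% in mock and 92.2% in NaCNBH3 libraries on average, higher in 12 of 16 samples; its log2 odds difference was 0.29 ± 0.12 (SE; 95% interval 0.03 to 0.55; limma adjusted p = 0.342). RRBP1 site 4 differed by 0.16 (95% interval -0.27 to 0.58) and RBCK1 site 3 by 0.18 (95% interval -0.55 to 0.91). The intervals of the RBCK1 sites were wide: site 2 ran from -1.73 to 0.73. Fisher's exact tests within each genotype, required to pass in both replicates, called no member in any genotype. They called 0.416% to 1.20% of all positions tested in both replicates, and 4 to 8 members were tested per genotype, so the count of 0 does not set the members apart.

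Among the 8 genotypes in mock libraries, no member passed the limma F-test, where 18 of 914 positions (1.97%) did. No member had an unadjusted p below 0.05 there either. The lowest was RBCK1 site 1 (limma adjusted p = 0.319). With the batch, that is the replicate number, as a block, 34 of 907 positions (3.75%) and again no member passed, though 2 members had an unadjusted p below 0.05. Against NAT10-WT, the study's reference genotype, no member passed for any genotype and none had an unadjusted p below 0.05, where 1.7% of all tested positions passed for Wildtype, 1.03% for G641E and 0% for FKBP, NAT10(-), K290A, E389L and H537A. RBCK1 sites 1 and 2 had no NAT10-WT value and were not tested there, nor was site 3 for H537A. These shares moved with the libraries and weights. Leaving out K290A mock replicate 1 or 2 gave 5.39% for FKBP and 5.37% for G641E, and precision weights gave 6.46% for Wildtype and 4.70% for K290A, with no member called. With the batch as a block, 0.225% of positions and no member passed for K290A. Fisher's exact tests against NAT10-WT, required to pass in both replicate numbers, gave larger shares. They called 1.63% of positions for E389L to 18.06% for Wildtype, with 123 of 801 for FKBP and 43 of 784 for K290A. No member was called, with 4 to 7 members tested per genotype. In the blocked fits 1 member had an unadjusted p below 0.05 for E389L (RBCK1 site 3, limma adjusted p = 0.999) and 1 for H537A (RRBP1 site 1, limma adjusted p = 0.405). The NAT10-deficient genotypes against the competent pair gave no member, with 30 of 912 positions (3.29%) passing. With the batch as a block no member passed either, and 1 had an unadjusted p below 0.05 (RBCK1 site 1, limma adjusted p = 0.226). For RRBP1 site 4 the deficient-minus-competent log2 odds difference was 0.13 (95% interval -0.50 to 0.77). For RRBP1 site 1 it was -0.89 (95% interval -2.08 to 0.31). Within batches, the difference in mean G share of RRBP1 site 3 was -3.71 percentage points in replicate 1 and 2.81 in replicate 2, and that of the AAMDC position was -1.62 and 2.65, so the direction turned between batches for both. An F-test of whether the NaCNBH3 difference varied among genotypes, added after the data were seen, called 0% of 909 positions and no member. Only 1 member, RBCK1 site 2, had an unadjusted p below 0.05 (limma adjusted p = 0.9997). A missed threshold does not show equal levels, and differences anywhere inside the intervals given remain compatible with the data. The smallest change that could be detected was not computed.

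**Figure D5:**
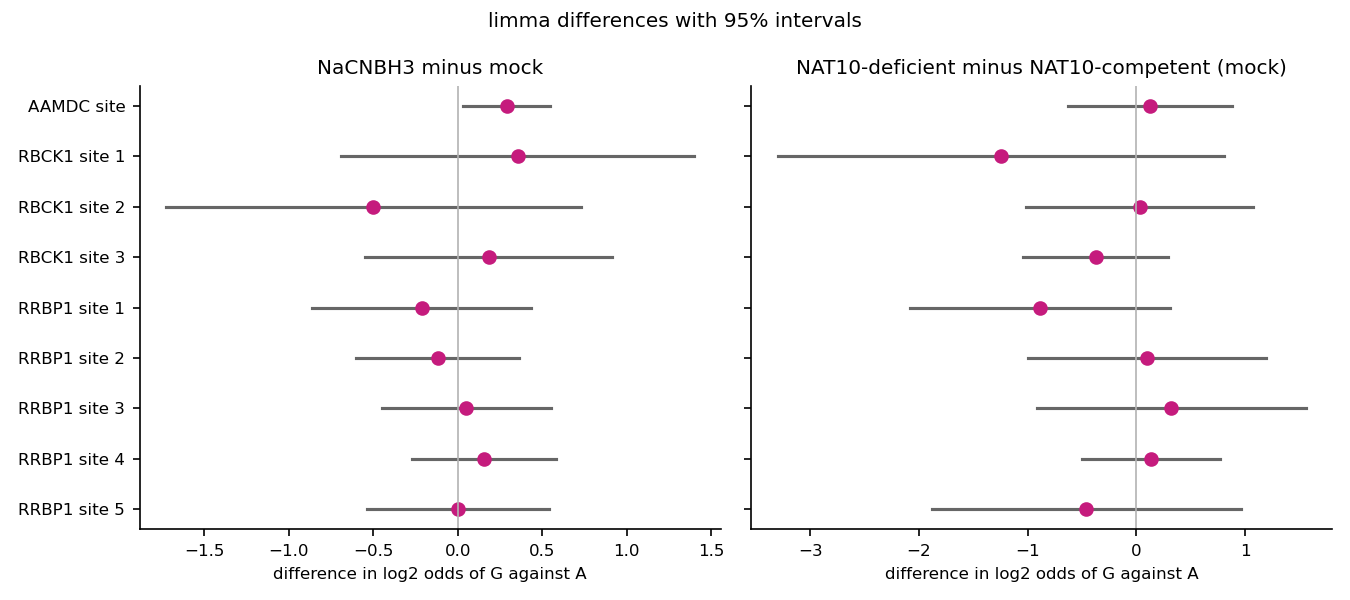
The points are limma differences in log2 odds of G against A for each clustered position and the bars their 95% intervals, for NaCNBH3 minus mock (left) and NAT10-deficient minus NAT10-competent genotypes in mock libraries (right). All right-hand intervals include 0, and on the left only that of the AAMDC position, 0.03 to 0.55, does not.

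The members covered in all 32 libraries were 4, the AAMDC position and RRBP1 sites 2 to 4. Their summed G share, here G over A and G reads, ran from 13.9% (E389L replicate 1) to 70.0% (E389L replicate 2) over mock libraries, and these 2 libraries had 55 of 722 and 439 of 577 of the summed reads at the AAMDC position. Without it the mean was 7.17% ± 2.74 (SD, n = 16) in mock and 7.05% ± 1.79 (SD, n = 16) in NaCNBH3 libraries.

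None of the lists of editing genes and known targets held a member. ADAR, the gene of ADAR1, had covered exonic positions in 6 of 16 mock libraries, ADAT3, a subunit of the tRNA deaminase, in 7, and ADARB1, ADARB2, ADAT1 and ADAT2 in none. Among recoding targets, FLNA was covered in 12 libraries, SON in 9, COPA in 6, AZIN1 in 4 and CDK13 in 2, and 6 of the list in none. The median over mock libraries was 130 of 8507 exonic positions for FLNA, 58 of 8393 for SON and 0 for COPA, AZIN1 and CDK13. Of 18 genes with inverted Alu copies, 9 had covered positions in at least 1 mock library.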

How the data were processed

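The study's methods describe partial rRNA depletion, fragmentation and adapter ligation of total RNA, then a split into mock and NaCNBH3 fractions, reverse transcription with Induro and ligation of a molecular identifier; per the labels, the reaction held 2-amino-dATP. Per the submitters' processing notes the tools were SAMtools 1.6, STAR 2.7.9a, UMI-tools 1.1.5 (duplicate removal, per the methods) and cutadapt 4.2, with GRCh38. The deposited values are raw counts of A, C, G and T per position and strand, listed at 30 or more reads. How reads with several possible origins were placed decides what is counted at repeats and near copies, and it was not tested here.

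Members were found by the rule given in the report. rRNA and tRNA genes were removed with RefSeq, GENCODE 44 and a match to a rDNA unit. Members, lists and tests were chosen with earlier results of these data known. Positions named are all members, those beside each threshold and those in the lists of editing genes. Levels are G over all reads, except the summed levels by library, which are G over A and G reads. Tests used limma 3.58.1 (R 4.3.3, squeezeVar moderation) on log2((G + 0.5)/(A + 0.5)) over 915 positions of any RNA, fitted in each row on the libraries that covered it, with Benjamini-Hochberg adjustment and a threshold of 0.05. The method was run on simulated counts with independent noise in each library, which leaves out the correlation between fractions of a sample. Windows were aligned with blastn 2.17.0. An Alu-type match was a 7SL match below 95% identity in the window of 100 bases on each side of a position, and a similar copy had at least 90% identity over 100 or more bases. No repeat annotation was used.

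Fractions of a sample are paired by design, and their deviations from group means correlated in all 8 genotypes (r 0.22 to 0.72, over 584 tested positions covered in all 32 libraries). Replicate numbers were taken as batches that pair samples across genotypes. Over 28 pairs of mock libraries r ran from -0.20 to 0.50, with a median of 0.16. Per the study's methods, replicates of transduced cells come from separate transductions, which does not cover Wildtype and FKBP cells. Alternatives changed the coverage, the window, the pseudocount, the weights, the block and the libraries included. At the members a covered library had 30 to 625 reads. One sequence and the coverage of 1 listed gene are not reported here.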

Additional observations from a re-analysis of the deposited data

Results flagged for a closer look

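Beyond the 9 members, 50 more clustered A-to-G positions appeared when 30 reads in 1 or more mock libraries were enough, a limit chosen after seeing the data. They lie outside the comparisons of the report, and 32 of them had more than the 3 mock G reads that a count of 0 allows. K290A replicate 1 covered 45 of the 50, and 46 were covered in 1 mock library. K290A replicate 1 also listed the most positions of the mock libraries, 3735165, at the lowest median depth, 49 reads. FKBP replicate 2 came next with 1864179 positions. Whether the genotype has a part in this was not tested. AHR, which encodes the aryl hydrocarbon receptor, had 11 positions with a median mock level of 14.7%, 10 of them over 3 G reads. AJUBA, a LIM-domain protein gene, had 14 with a median of 10.3%, 10 of them over 3 G reads. PAICS, of purine synthesis, had 8 with a median of 6.35%, and 1 of them was over 3 G reads. PINK1-AS/DDOST, overlapping genes, had 5 with a median of 6.52%. SRP9, of the signal recognition particle, had 4 with 19.9%, TMPO, of the nuclear lamina, had 5 with 28.6%, and TNFAIP8L1 had 3 with 10%.

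Of all 50, 47 lay in UTRs, 33 had an Alu-type match within 100 bases, and 4 had G as the base before. The NaCNBH3 libraries, not used to find them but split from the same RNA samples, covered 44. Of these, 40 had G reads and 26 had a level of 5% or more. The median level was 7.08% against 10% for the same positions in mock, where 5% or more was required. No TMPO position was covered in the NaCNBH3 libraries. The positions had 30 to 105 mock reads each, and no test was made.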

How the results depend on the processing

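The number of members rests on coverage. Against 9 in the main analysis it was 4 with a minimum of 50 reads, 4 with 12 of 16 mock libraries, 0 with 5 or more neighbours, 5 when found in NaCNBH3 libraries and 6 with a window of 50 nt. Leaving out 1 mock library gave 4 to 9 members: 4 without K290A replicate 2, and 5 without FKBP replicate 2 or G641E replicate 1. With 4 or more libraries the count was 9, with 2 or more 13 and with 1 or more 59, limits chosen after seeing the data. The other 11 mismatch types together gave 12, 16 and 25 clustered positions at these limits.

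Across 228 alternative fits no member was called, with or without the replicate block, so the block changed no call of a member. The lowest adjusted p of a member was 0.0580, for Wildtype against NAT10-WT without Wildtype mock replicate 1. The share of all positions called moved more. For NaCNBH3 against mock it was 0.219% with no replicate block and 8.415% with precision weights, and 0.874% (without Wildtype replicate 1) to 2.95% (without K290A replicate 2) on leaving out a replicate. For the genotypes it ran from 0.439% (without Wildtype mock replicate 1) to 11.3% (without K290A mock replicate 2), and for deficient against competent genotypes from 0.774% (without NAT10-WT mock replicate 1) to 12.9% (without K290A mock replicate 2). The causes were not tested.

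The summed level (G over A and G reads), 39.2% in mock and 40.1% in NaCNBH3 libraries on average, depends on which members enter. As a median of members it was 8.63% and 8.11%, without RRBP1, which leaves the AAMDC position alone, 91.2% and 92.7%, and over members of 5% to 40% G alone 7.17% and 7.05%. The overlap with soft-masked repeats was not run, since the genome used here carries no mask. Depth limits RBCK1 most, where libraries had 30 to 65 reads.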
